A study of Mus musculus with 39 samples.

Results

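The comparison described here set melanomas treated for 5 days with anti-PD-1 plus EPAT, the combination, against melanomas treated for 5 days with anti-PD-1 alone. Its members were the tumour libraries that the labels give this treatment and day, 5 combination libraries and 5 anti-PD-1 libraries, 10 of the 39 in the series. The question it addresses is how tumour gene expression differs when blockade of prostaglandin E2 receptors is given together with the antibody. All mice were C57BL/6 bearing a Braf-mutated melanoma grown from cultured tumour cells, and treatment began on day 7 after injection. The combination mice received anti-PD-1 at 200 µg per dose every few days together with EPAT, a treatment that blocks EP2 and EP4, which are receptors for prostaglandin E2, at 30 mpk (3 mg/mL, 200 µl per dose). The anti-PD-1 mice received the antibody on the same schedule, and the labels do not say whether they were also dosed with the DMSO and PEG400 vehicle. For reference, 5 libraries came from mice given EPAT alone for 5 days and 5 from mice given vehicle for 5 days, and the 2 days of treatment in the same arms gave 5 combination and 4 anti-PD-1 libraries. RNA came from whole tumours, so that fewer cells of a type and less RNA per cell cannot be told apart in any value below. Nothing in the labels ties each library to a mouse of its own, and p-values then measure only the spread between libraries. The extraction note gives a single collection day that matches neither labelled time, and the labels were followed. In the title of anti-PD-1 replicate 5, the leading number is the one carried by the 4 anti-PD-1 libraries of day 2 and not by the other 4 of day 5. Titles of the EPAT arm differ likewise: day 5 replicate 1 carries the number of 4 day 2 libraries. Day 2 replicate 5 of that arm carries the number of the other 4 EPAT libraries of day 5.

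PD-1 is an inhibitory receptor on activated T cells, and antibodies that block it release their effector functions. Prostaglandin E2 acts on EP2 and EP4, receptors that raise cyclic AMP and through protein kinase A switch on genes under the transcription factor CREB. In tumours prostaglandin E2 is known for restraining dendritic cells, NK cells and cytotoxic T cells and for driving inflammatory myeloid programmes. Several genes of the circadian clock and of the glucocorticoid response, among them Per1, are also known to respond to cyclic AMP.

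Sequencing depth was between 9177143 and 13999081 counts in the combination libraries and between 9896094 and 13248170 counts in the anti-PD-1 libraries. Libraries were 3′ tags, 1 count per transcript end, so the level of a gene is given as CPM, its counts relative to the scaled size of the library, and is compared only within that gene. The largest axis of variation among the 10 libraries, 59.7% of the variance of log2 CPM, was led by skeletal muscle genes such as Myh1 and Tnnc2. The mean log2 CPM of 14 muscle genes lay between 3.40 and 6.42 in the combination libraries and between -0.78 and 9.48 in the anti-PD-1 libraries, where replicate 4 was far above the others. Lung transcripts (Sftpc, Sftpa1 and Scgb1a1 summed) numbered 1006 and 947 in combination replicates 2 and 4 and 860 and 1036 in anti-PD-1 replicates 2 and 3, against at most 11 in each of the other 6 libraries. Defining melanocyte genes were mostly absent from these tumours: 4 of 12 lineage genes passed the filter on low counts, Tyr, Tyrp1, Slc45a2 and Oca2 had no count in any of the 10 libraries, and Mitf had 579 to 1002 counts in combination libraries and 339 to 957 in anti-PD-1 libraries. The closest 2 libraries of a group, anti-PD-1 replicates 1 and 5, still differed by 13.3 times the counting noise per gene.

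Among 15070 genes tested, 3 were lower in the combination tumours and none was higher (edgeR quasi-likelihood test, Benjamini-Hochberg adjusted p under 0.05). The 3 were Trabd2b, an antagonist of Wnt signalling, Btbd2, a BTB-domain protein, and Fkbp5, a regulator of the glucocorticoid receptor. Their fitted levels were lower than in anti-PD-1 tumours by 1.07 to 1.12 on the log2 scale. These 3 genes made up 0.0199% of the genes tested. At an unadjusted p under 0.05 there were 951 genes (6.31%), 732 lower (4.86%) and 219 higher (1.45%). With 1 library left out this number ranged from 474 among 15044 genes, without combination replicate 1, to 1285 among 15048, without combination replicate 4. It was 325 among 13873 with only the 10 libraries in the fit, and 2463 among 15070 with limma-voom and quality weights. Fitted changes of any size split far more evenly in the main fit, with 54.0% of genes lower and 46.0% higher. Every combination library lay below every anti-PD-1 library for 53 genes (0.352% of those tested) and above for 21 (0.139%). The median change of all genes was -0.03 on the log2 scale.

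**Figure D1:**
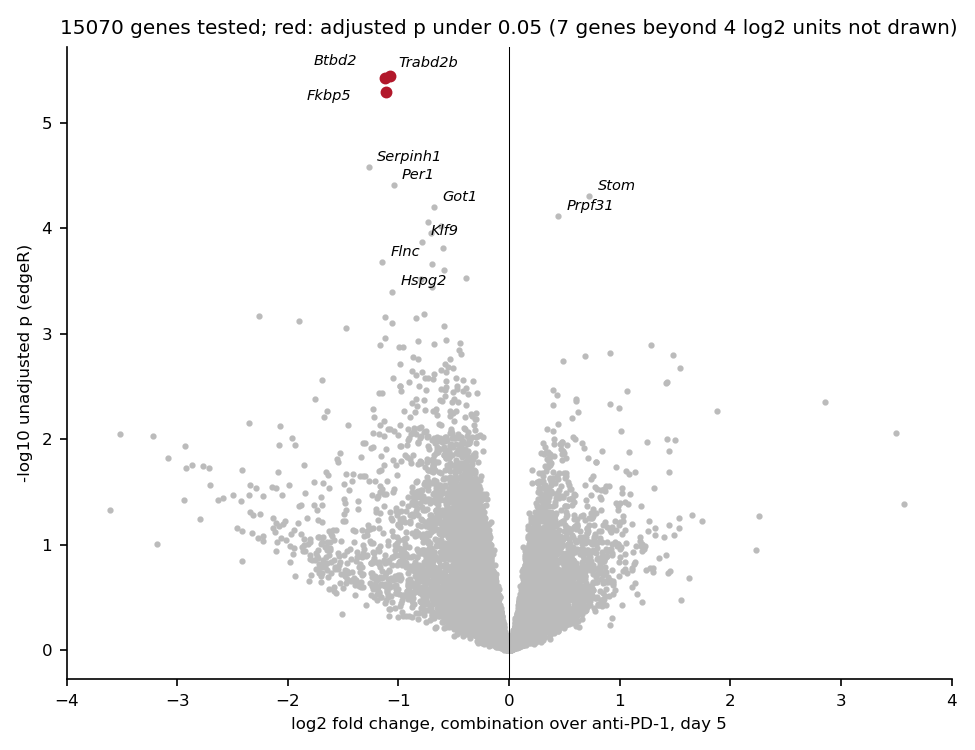
Each point is a gene: the log2 fold change of combination over anti-PD-1 tumours on day 5 against the −log10 of its unadjusted p. The 3 genes past the adjusted threshold, in red, all lie on the lower side near -1.1, and the 20 genes of smallest p include only Stom and Prpf31 on the higher side.

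Fkbp5 encodes a co-chaperone of Hsp90 that binds the glucocorticoid receptor and is a classical target of that receptor. Its level was 15.2, 28.5, 27.5, 26.2 and 28 CPM in the combination libraries, against 51.6, 44.5, 61.9, 61.4 and 52.3 CPM in the anti-PD-1 libraries. The groups did not overlap, and combination replicate 1 was the lowest of all. That library also had the lowest mean log2 CPM over 8 mitochondrially encoded genes, 8.10, against 8.72 to 8.95 in the other combination libraries and 8.67 to 9.0 in the anti-PD-1 libraries; without it the log2 fold change of Fkbp5 was -0.97. With all libraries the log2 fold change was -1.11 ± 0.21 (SE), with an edgeR adjusted p of 0.0256. Among all groups of the series the lowest Fkbp5 library outside the combination on day 5 had 31.4 CPM, in an EPAT tumour of day 5, still above the highest of the 5 combination libraries.

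Trabd2b encodes a membrane metalloprotease known to cleave and inactivate Wnt proteins. Its level on day 5 was 6.13, 6.11, 5.17, 6.14 and 9.64 CPM in the combination libraries, against 14, 10.3, 10.6, 19.1 and 15.7 CPM in the anti-PD-1 libraries. Combination replicate 5 stood above the other 4 and came near the lowest anti-PD-1 libraries without reaching them. The log2 fold change was -1.07 ± 0.20 (SE; edgeR adjusted p 0.0256). Btbd2, a BTB-domain protein, measured 5.81, 7.24, 8.62, 11.4 and 11 CPM in the combination libraries, against 21.7, 16.2, 12.1, 22.2 and 24.1 CPM in the anti-PD-1 libraries. These groups did not overlap either, but combination replicate 4 and anti-PD-1 replicate 3 were close to each other. The log2 fold change of Btbd2 was -1.12 ± 0.21 (SE; edgeR adjusted p 0.0256). For Trabd2b and Btbd2 the anti-PD-1 mean of day 5 was the highest of the 8 groups of treatment and day, at 13.9 and 19.2 CPM. Vehicle tumours of day 5 averaged 11.1 and 14.4 CPM, and combination tumours of day 5 averaged 6.64 and 8.82 CPM.

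The size of these 3 changes was steadier than their calls. Over 22 alternative settings, among them each of the 10 libraries left out in turn, the log2 fold change stayed between -1.17 and -0.95 for Fkbp5, between -1.24 and -0.92 for Trabd2b and between -1.25 and -1.0 for Btbd2. All 3 calls were lost without combination replicate 1 (smallest adjusted p 0.189), 2 (where Got1 alone passed, at 0.0292) or 3 (0.132) and without anti-PD-1 replicate 1 (0.0820), 4 (0.112) or 5 (0.167), Fkbp5 also without anti-PD-1 replicate 3 (0.0550) and Trabd2b also without combination replicate 4 (0.0743). They were lost too with only the 10 libraries in the fit (smallest adjusted p 0.570), with no filter on low counts (0.0547), and with combination replicate 3 and anti-PD-1 replicates 3 and 4, the muscle-rich libraries, left out together (0.119). Within the libraries with lung transcripts, 2 of each group, and within those without, 3 of each group, the difference in mean log2 CPM was -0.94 and -1.27 for Fkbp5, -0.75 and -1.24 for Trabd2b, and -0.61 and -1.44 for Btbd2.

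**Figure D2:**
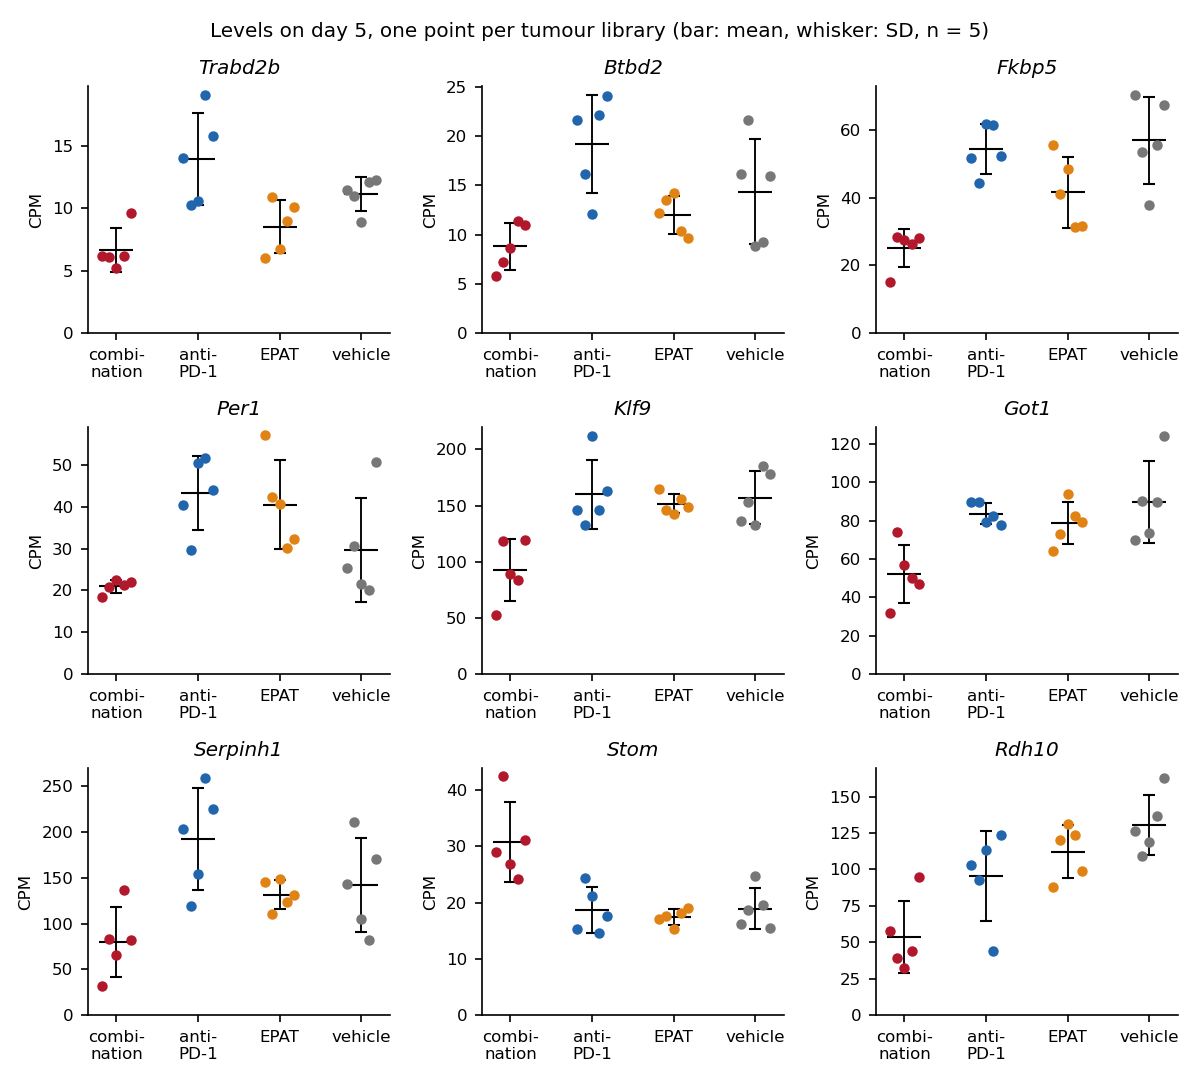
CPM of 9 genes in the 4 treatment groups of day 5, with each point a tumour library and bars showing mean and SD over 5 libraries. For Fkbp5, Trabd2b, Btbd2, Per1, Klf9 and Got1 every combination point lies below every anti-PD-1 point, whereas Serpinh1, Stom and Rdh10 overlap.

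The next genes by p did not pass the adjusted threshold. Of the 20 genes with the smallest p, 18 had lower and 2 had higher fitted levels in combination tumours, and 11 had groups that did not overlap, as their choice by p favours. Per1, a repressor in the core circadian loop, was at 18.5, 20.9, 22.4, 21.3 and 22 CPM in the combination libraries, against 40.4, 29.8, 50.5, 51.8 and 44.0 CPM in the anti-PD-1 libraries. The combination libraries were tightly grouped, below all anti-PD-1 libraries, which spread widely. Its log2 fold change was -1.04 ± 0.22 (SE; edgeR adjusted p 0.119). Klf9, a zinc-finger transcription factor induced by glucocorticoids, was at 52.7, 119, 89.4, 83.7 and 119.6 CPM in the combination libraries, against 146, 132, 212, 146 and 163 CPM in the anti-PD-1 libraries. Combination replicates 2 and 5 lay just under the lowest anti-PD-1 library. Its log2 fold change was -0.78 ± 0.18 (SE; edgeR adjusted p 0.169).

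Got1, the cytosolic aspartate aminotransferase, was at 32, 73.8, 57.1, 50.2 and 47.1 CPM in the combination libraries, against 89.6, 89.8, 79.0, 82.2 and 77.8 CPM in the anti-PD-1 libraries. The groups were apart, and combination replicate 1 was again the lowest. Its log2 fold change was -0.68 ± 0.15 (SE; edgeR adjusted p 0.137). Serpinh1, the collagen chaperone of the endoplasmic reticulum, was at 31.5, 83.2, 65.4, 137 and 81.9 CPM in the combination libraries, against 204, 119, 154, 259 and 225 CPM in the anti-PD-1 libraries. Only combination replicate 4 reached into the anti-PD-1 range. The log2 fold change of Serpinh1 was -1.27 ± 0.26 (SE; edgeR adjusted p 0.100). Vehicle tumours of day 5 averaged 143 CPM of Serpinh1, between the combination mean of 79.8 CPM and the anti-PD-1 mean of 192 CPM. Rdh10, which makes the retinoic acid precursor retinaldehyde, averaged 53.4 ± 24.8 CPM in combination and 95.3 ± 30.9 CPM in anti-PD-1 tumours (SD, n = 5 each), with groups that overlapped, as anti-PD-1 replicate 4 had 43.9 CPM. Its log2 fold change was -0.84 ± 0.23 (SE; edgeR adjusted p 0.431).

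Among matrix, cytoskeletal and signalling genes of the 20, fitted log2 fold changes were -1.06 ± 0.27 for Hspg2, the basement-membrane proteoglycan perlecan, -1.15 ± 0.28 for Flnc, the muscle filamin, and -0.39 ± 0.10 for Smad1, a transducer of BMP signals (SE). Hspg2 and Flnc overlapped between groups, and Flnc reached 118 CPM in anti-PD-1 replicate 4, the library richest in muscle genes, without which its log2 fold change was -0.69. Dolk (dolichol kinase), Pigu (a subunit of the GPI transamidase), Rbms2 and Hnrnpl (RNA-binding proteins), Banp, Maged1 and Ier2 lay between -0.79 and -0.59. As for Serpinh1, the anti-PD-1 mean of day 5 was the highest of the 8 groups for Hspg2, Flnc, Smad1 and Dolk. The same held for Pigu, Rbms2, Hnrnpl, Banp and Maged1, but not for Ier2, Tmem198b, Fkbp5, Per1, Klf9 or Got1. The margin was narrow for Smad1, 56.2 against 55.1 CPM in vehicle tumours of day 5. Hspg2 and Pigu averaged 255 and 17.9 CPM in anti-PD-1 tumours of day 5. Their combination means were 122 and 11.7 CPM, and the vehicle means of day 5 were 166 and 13.4 CPM. Tmem198b, at -0.70 ± 0.17, overlaps Dnajc14 and Mmp19 on the opposite strand; as the strand setting of the counting is not given in the sources used here, its reads are uncertain. On the higher side, Stom, the membrane protein stomatin, was at 29, 42.5, 26.9, 24.2 and 31.2 CPM in the combination libraries, against 15.3, 24.3, 21.1, 14.7 and 17.6 CPM in the anti-PD-1 libraries. Combination replicate 4 lay within the anti-PD-1 range by a narrow margin, and the log2 fold change was 0.73 ± 0.16 (SE; edgeR adjusted p 0.125). Prpf31, a pre-mRNA splicing factor, averaged 42.1 ± 6.40 CPM in combination and 30.9 ± 2.75 CPM in anti-PD-1 tumours (SD, n = 5 each), a log2 fold change of 0.44 ± 0.10 (SE) with an edgeR adjusted p of 0.144.

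Promoter sequence is shown for 4 of the separated genes, since known targets of glucocorticoids and of cyclic AMP are among them. Windows are RefSeq promoters of GRCm38.p6, 250 bases before to 50 after an annotated start, 5′ to 3′ on the strand of the gene, and capitals mark a cyclic AMP half-site TGACG searched on both strands. They are Fkbp5 at chr17:28486100-28486399 (minus strand), the downstream of 2 annotated Per1 starts at chr11:69099902-69100201 (plus strand), Klf9 at chr19:23140976-23141275 (plus strand) and Btbd2 at chr10:80656445-80656744 (minus strand).
Fkbp5: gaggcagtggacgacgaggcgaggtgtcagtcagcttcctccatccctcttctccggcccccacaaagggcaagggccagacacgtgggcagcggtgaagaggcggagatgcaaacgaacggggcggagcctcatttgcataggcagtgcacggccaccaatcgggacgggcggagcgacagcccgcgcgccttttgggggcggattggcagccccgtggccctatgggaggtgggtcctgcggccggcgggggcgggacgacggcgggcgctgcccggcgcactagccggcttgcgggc
Per1: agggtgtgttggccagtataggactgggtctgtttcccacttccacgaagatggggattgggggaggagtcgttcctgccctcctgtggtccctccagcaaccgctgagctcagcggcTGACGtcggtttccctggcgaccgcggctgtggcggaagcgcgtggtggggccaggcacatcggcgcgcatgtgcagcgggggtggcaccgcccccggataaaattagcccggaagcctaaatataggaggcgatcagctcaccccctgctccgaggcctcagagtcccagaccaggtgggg
Klf9: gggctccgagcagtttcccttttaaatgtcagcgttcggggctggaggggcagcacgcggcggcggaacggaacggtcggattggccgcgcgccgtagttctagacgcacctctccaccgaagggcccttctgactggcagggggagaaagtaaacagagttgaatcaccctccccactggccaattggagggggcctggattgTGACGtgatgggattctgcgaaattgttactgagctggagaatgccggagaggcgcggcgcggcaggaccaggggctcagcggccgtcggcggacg
Btbd2: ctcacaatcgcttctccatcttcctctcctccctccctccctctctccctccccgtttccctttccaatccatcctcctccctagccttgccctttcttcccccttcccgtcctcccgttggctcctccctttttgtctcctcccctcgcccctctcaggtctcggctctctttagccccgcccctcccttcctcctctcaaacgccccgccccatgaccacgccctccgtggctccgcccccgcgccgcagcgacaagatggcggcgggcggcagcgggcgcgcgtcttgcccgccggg
Of the 20 genes with the smallest p, 17 had a window, Trabd2b not among them, and 8 of the 17 held the half-site, against 23% of 27025 genes with a window. Those 27025 genes were not limited to the 15070 tested, so the shares come from unlike sets, and an enrichment was not tested. The full cyclic AMP response element TGACGTCA, which contains the half-site, was in none of the 17 and in 2.03% of all genes, and the palindromic glucocorticoid response element, AGAACA and TGTTCT spaced by 3 bases, was in none of the 17 and in 0.0111% of all genes. A match is a description of letters in these windows, and no match says nothing of elements elsewhere in a gene.

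Genes induced by glucocorticoids had lower fitted levels throughout the list in combination tumours. All 14 members tested had fitted log2 fold changes below 0, against 54.0% of all genes, with a median of -0.46, against -0.03 for all genes. Only Fkbp5 passed the test, and 3 of the 14 had groups that did not overlap, against 0.352% of all genes in this direction: Fkbp5, Per1 and Klf9. Over the alternatives the median lay between -0.66, without anti-PD-1 replicate 1, and -0.21, in limma-trend on the deposited log2 values. Tsc22d3, the leucine-zipper protein GILZ, was at -0.91 ± 0.28 (SE; edgeR adjusted p 0.598), averaging 44.9 CPM in combination and 84.3 CPM in anti-PD-1 tumours, of which replicates 3 and 4 were the highest at 111 and 147 CPM. Ddit4, an inhibitor of mTORC1 signalling, was at -0.49 ± 0.25 and Sgk1, a kinase of salt balance, at -0.09 ± 0.25 (SE). The mean log2 CPM of the list was 4.68, 5.03, 4.87, 4.87 and 4.91 in the combination libraries, against 4.95, 5.04, 5.63, 5.65 and 5.03 in the anti-PD-1 libraries. Anti-PD-1 replicates 3 and 4 stood above everything else, while replicates 1, 2 and 5 lay near the top of the combination range, so the list score overlapped although its leading genes did not. The difference in the mean score was -0.39 both within the libraries with lung transcripts and within those without.

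Circadian clock genes form the oscillator that times daily rhythms, and Per1 belongs to this list, to the glucocorticoid-induced list and to the cyclic AMP list. Of 16 clock genes tested, 12 had fitted changes below 0, against 54.0% of all genes, and 4 above, with a median log2 fold change of -0.26 that was -0.13 with the muscle-rich libraries left out. None passed the test, and 2 of the 16, Per1 and Ciart, had groups that did not overlap, against 0.352% of all genes in this direction. Ciart, a repressor of the clock activator complex, was at 1.40, 2.20, 0.493, 1.81 and 1.85 CPM in the combination libraries, against 4.54, 3.67, 2.54, 2.67 and 4.88 CPM in the anti-PD-1 libraries. These are low levels, and Ciart lies opposite a non-coding gene with which it shares bases, yet every combination library was below every anti-PD-1 library. Its log2 fold change was -1.23 ± 0.44, that of Per2, another repressor, -0.87 ± 0.31, and that of Bhlhe40, which represses clock output, -0.73 ± 0.23 (SE). Nr1d1 and Nr1d2, the REV-ERB repressors, were at 0.19 ± 0.17 and 0.11 ± 0.16, Cry1 at -0.21 ± 0.14, and Arntl, which encodes the activator BMAL1, at -0.32 ± 0.30 (SE). The mean log2 CPM of the clock list was 3.96, 3.99, 3.92, 3.93 and 4.24 in the combination libraries, against 4.26, 4.30, 4.39, 4.51 and 4.33 in the anti-PD-1 libraries. The scores of the groups did not overlap, and combination replicate 5 alone came close to the anti-PD-1 tumours. No time of day is given for the collections, so an influence of collection time on clock genes was not tested.

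The list of cyclic AMP and CREB targets, chosen as genes downstream of EP2 and EP4, had 16 of 18 members below 0, against 54.0% of all genes. Fos, placed with the immediate early genes and at a log2 fold change of 0.99, was not in this list, so the count describes the listed genes only. The median log2 fold change of the list was -0.35, which was -0.55 without combination replicate 2 and -0.23 without combination replicate 1. None passed the test. The difference in the mean score was -0.15 within the libraries with lung transcripts and -0.57 within those without. Besides Per1 and Per2, the orphan receptor genes of the Nr4a family were below 0: Nr4a1 at -1.30 ± 0.55, Nr4a2 at -0.65 ± 0.33 and Nr4a3 at -0.57 ± 0.22 (SE). Nr4a1 was at 2.37, 25.1, 13.7, 25.1 and 14.3 CPM in the combination libraries, against 81.3, 34.7, 6.27, 26.1 and 51.7 CPM in the anti-PD-1 libraries. Anti-PD-1 replicate 3 lay inside the combination range and replicate 4 just above it, so for Nr4a1 the groups overlapped. The direction of Nr4a1 turned with the lung transcripts: its difference in mean log2 CPM was 0.76 within the libraries that had them and -2.59 within those that did not. Pde4d, a phosphodiesterase that breaks cyclic AMP down, was at -0.53 ± 0.22, and Crem, which encodes a repressor induced through CREB, at -0.31 ± 0.21 (SE). Atf3, a stress-induced factor, was one of the 2 members above 0, at 0.53 ± 0.32. The list score was lowest in combination replicate 1, at 3.52, against 4.11 to 4.48 in the other combination libraries and 4.34 to 4.81 in the anti-PD-1 libraries.

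The prostaglandin E2 pathway itself showed no gene past the test. Of 13 members tested, 6 were above and 7 below 0, with a median log2 fold change of -0.11, whose sign depended on the setting. Ptger4, which encodes EP4, was at 29.8, 22.2, 49.4, 27.7 and 36.1 CPM in the combination libraries, against 12.3, 11.9, 48.1, 36.8 and 16.7 CPM in the anti-PD-1 libraries. The groups overlapped, their highest libraries almost level, with a log2 fold change of 0.39 ± 0.31 (SE). The overlap came from anti-PD-1 replicates 3 and 4, both muscle-rich, while replicates 1, 2 and 5 lay below every combination library. Over 22 alternatives the fold change of Ptger4 stayed above 0, between 0.20 and 1.08, and passed the test in none. Ptger4 shares bases on the opposite strand with Ttc33, which had 3686 counts over the 10 libraries against 3452 for Ptger4, so its reads are uncertain. Ptger2, which encodes EP2, was scarce, at 0.43, 2.63, 1.72, 1.65 and 1.17 CPM in the combination libraries, against 1.71, 1.049, 4.10, 4.75 and 2.16 CPM in the anti-PD-1 libraries, and its log2 fold change was -0.84 ± 0.46. It too overlaps a gene on the opposite strand, Gm17173, with 94 counts against 262 for Ptger2. For Ptgs2, the inducible cyclooxygenase, means were 78.7 CPM in combination and 90.1 CPM in anti-PD-1 tumours, a log2 fold change of -0.19 ± 0.50 (SE).

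Stress-response lists were mixed. Of 15 immediate early genes, 9 were above and 6 below 0, and they went different ways: Fos was at 0.99 ± 0.33, Egr1 at 0.35 ± 0.25, Fosl1 at -0.56 ± 0.27 and Ier2 at -0.69 ± 0.18 (SE), none past the test. Fos measured 55.0, 58.0, 49.5, 117 and 34 CPM in the combination libraries, against 25, 35.4, 26, 45 and 26.5 CPM in the anti-PD-1 libraries. Combination replicate 5 lay inside the anti-PD-1 range and the other 4 above it. Heat-shock genes had 8 of 11 members below 0, the inducible Hspa1b at -1.03 ± 0.41 and Hspa1a at -0.76 ± 0.36 among them, while Hsp90aa1 and Hsp90ab1 were at 0.16 ± 0.18 and 0.08 ± 0.18 (SE). Of 19 hypoxia and glycolysis genes, 14 were below 0 with a median of -0.21. This median was -0.45 with the muscle-rich libraries left out and -0.10 without anti-PD-1 replicate 5. Pdk1, the kinase that turns off pyruvate oxidation, was at -0.67 ± 0.29. MAPK feedback genes, which report signalling downstream of BRAF, had 8 of 12 members below 0 with a median of -0.21. That median was -0.52 with limma-voom and -0.007 without anti-PD-1 replicate 2. Spry1 was among those below 0, at -0.97 ± 0.37 (SE), and no member passed the test.

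Interferon-responsive genes leaned the other way without any of them passing the test. All 25 type I interferon response genes had fitted changes above 0, against 46.0% of all genes, with a median log2 fold change of 0.49, and 21 of 24 interferon-gamma response genes were above 0, with a median of 0.58. No type I gene had groups apart, and in the interferon-gamma list only Cd274 did, against 0.139% of all genes in this direction. Ifit2, an RNA-binding antiviral protein, was at 0.87 ± 0.39, Rsad2, the antiviral enzyme viperin, at 0.79 ± 0.39, and Ddx58, the RNA sensor RIG-I, at 0.54 ± 0.25 (SE). Tgtp1 and Tgtp2, near-identical interferon-inducible GTPase genes whose reads are hard to divide, were at 1.88 ± 0.63 and 1.5 ± 0.55 (SE).

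The list scores showed which tumours carried this. The mean log2 CPM of the interferon-gamma response list was 5.49, 7.24, 6.10, 6.59 and 5.79 in the combination libraries, against 5.80, 5.53, 6.24, 5.73 and 5.85 in the anti-PD-1 libraries. Combination replicates 2 and 4 were above all anti-PD-1 libraries, and replicate 1 was the lowest of the 10. The type I interferon response list gave 4.92, 6.29, 5.60, 5.86 and 4.68 in the combination libraries, against 5.16, 4.85, 5.33, 5.53 and 4.73 in the anti-PD-1 libraries, so that combination replicates 2, 3 and 4 were above all anti-PD-1 libraries and replicate 5 was the lowest of the 10. Combination replicates 2 and 4 were also the 2 combination libraries with lung transcripts. Within the libraries with lung transcripts the score differed by 0.98 for the type I list and 1.03 for the interferon-gamma list, and within those without by -0.08 and -0.004. Without combination replicate 2 the medians of the lists were 0.21 and 0.16.

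Cd274 encodes PD-L1, the ligand of PD-1 and an interferon-gamma target. It was at 104, 164, 122, 79.0 and 82.1 CPM in the combination libraries, against 54.1, 42.7, 77.4, 50.3 and 47.4 CPM in the anti-PD-1 libraries. No combination library was as low as the highest anti-PD-1 library, although replicate 4 was nearly so. The log2 fold change was 1.02 ± 0.45 (SE), with an edgeR adjusted p of 0.753, and the difference in mean log2 CPM was 0.98 within the libraries with lung transcripts and 1.00 within those without. It kept its direction in all 22 alternative settings, between 0.83 and 1.18, and passed the test in none of them.

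Chemokines that attract type 1 lymphocytes had all 9 members above 0 and a median of 0.55, with none past the test. The median was 1.07 with the muscle-rich libraries left out and 0.43 without combination replicate 2. Cxcl11, a ligand of CXCR3, was at 19.6, 27.5, 9.44, 18.4 and 12.8 CPM in the combination libraries, against 6.08, 7.55, 9.48, 3.45 and 6.23 CPM in the anti-PD-1 libraries. The groups were apart but for combination replicate 3, which lay just under anti-PD-1 replicate 3. The log2 fold change was 1.42 ± 0.44 (SE; edgeR adjusted p 0.599), and Cxcl11 shares bases with Art3 on the opposite strand, which leaves its reads uncertain. Cxcl10 averaged 147 CPM in combination and 77.7 CPM in anti-PD-1 tumours, a log2 fold change of 0.92 ± 0.50, and Cxcl9 averaged 545 CPM in combination and 420 CPM in anti-PD-1 tumours, 0.38 ± 0.44 (SE). Their receptor gene Cxcr3 was at 0.01 ± 0.53.

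T cell and cytotoxic genes varied widely between tumours of a group. Of 18 T cell genes 13 were above 0, with a median of 0.06, and of 16 cytotoxic genes 7 were above 0, with a median of -0.13; none passed the test. Cd8a, a subunit of the CD8 co-receptor, was at 31.2, 23.4, 74.9, 52.1 and 16.9 CPM in the combination libraries, against 26.1, 9.97, 53.5, 93.4 and 14.2 CPM in the anti-PD-1 libraries. Both groups covered a wide range, and the log2 fold change was 0.01 ± 0.58 (SE), an error too large to tell a sizeable change in either direction from none. Gzmb, the granule protease, was at 0.03 ± 0.54, Prf1, the pore-forming protein, at 0.48 ± 0.40, Ifng at 0.49 ± 0.61 and Pdcd1, which encodes PD-1, at -0.40 ± 0.49 (SE). NK cell genes had 5 of 8 members above 0 with a median of 0.22, inflammatory monocyte genes 7 of 10 with 0.33, conventional dendritic cell genes 7 of 12 with 0.13, regulatory T cell genes 6 of 9 with 0.22, macrophage genes 7 of 16 with -0.05, and neutrophil genes 2 of 8 with -0.24. MHC class I and class II presentation genes had medians of 0.10 and 0.08. Several of these medians depended on the muscle-rich libraries: with combination replicate 3 and anti-PD-1 replicates 3 and 4 left out together, an alternative chosen after seeing the data, the median was 0.87 for T cell, 0.94 for cytotoxic, 0.83 for NK cell and 0.84 for inflammatory monocyte genes. In the same setting it was 0.48 for dendritic cell, 0.36 for regulatory T cell, 0.68 for macrophage, 1.37 for neutrophil and 0.64 for MHC class II genes, so that the sign turned for the cytotoxic, macrophage and neutrophil lists.

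**Figure D3:**
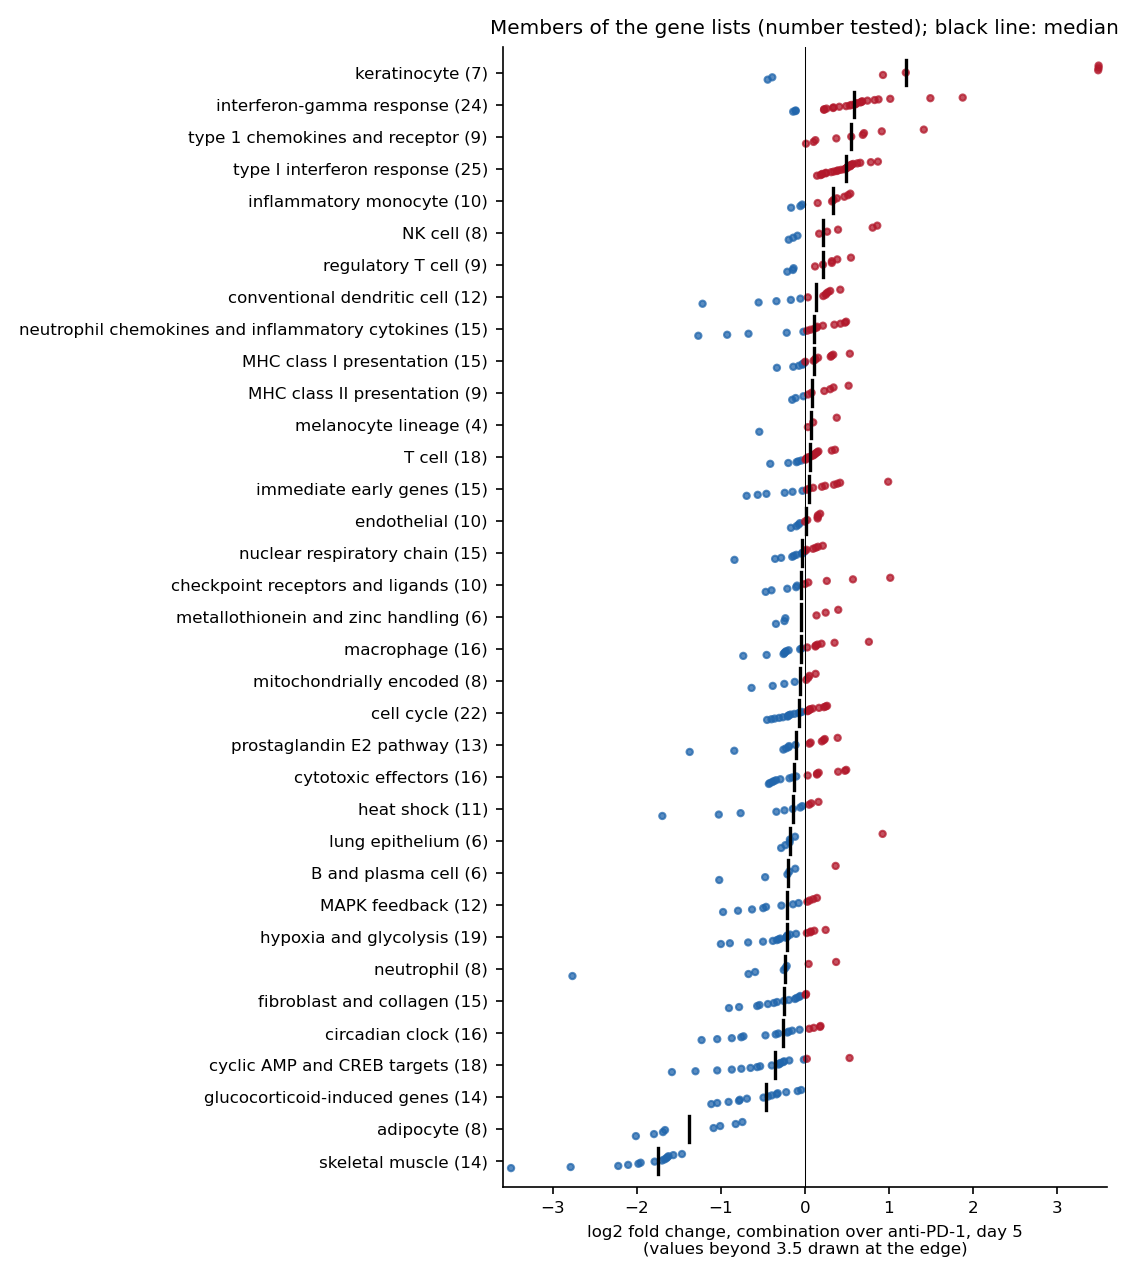
Log2 fold changes of combination over anti-PD-1 tumours on day 5 for the tested members of 35 gene lists, red above 0 and blue below, with the black line at the list median. Glucocorticoid-induced genes lie wholly below 0 and type I interferon genes wholly above, while the widest values belong to muscle, adipocyte and keratinocyte genes.

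Tissue genes gave the largest fold changes and the least even ones. All 14 skeletal muscle genes had fitted changes below 0, with a median of -1.75, yet the mean list score was higher in combination tumours, 4.77 ± 1.11, than in anti-PD-1 tumours, 4.03 ± 3.94 (SD of log2 CPM, n = 5 each). The sign therefore differed between the fitted median and the mean of log values. Myh2, a fast myosin heavy chain, was at 11.9, 2.77, 37.0, 9.68 and 3.41 CPM in the combination libraries, against 0.171, 4.83, 17.2, 426 and 0.0799 CPM in the anti-PD-1 libraries, so that anti-PD-1 replicate 4 alone set its group mean. With limma-voom and quality weights the muscle median was 3.31. All 8 adipocyte genes were below 0 in the edgeR fit (median -1.38), but their median was 0.46 with limma-voom, and the difference in their mean score was -2.72 within the libraries with lung transcripts and 0.85 within those without. Of 7 keratinocyte genes 5 were above 0 (median 1.20), and the median was -2.13 with the muscle-rich libraries left out. Krt14 had 58.9 CPM in combination replicate 3 and at most 0.420 CPM in any other of the 10 libraries. Collagen and fibroblast genes had 13 of 15 members below 0 with a median of -0.25, Pdgfrb, the platelet-derived growth factor receptor of stromal cells, at -0.57 ± 0.27 (SE), and the list score again barely differed, 8.0 ± 0.36 in combination and 7.97 ± 1.13 in anti-PD-1 tumours. With the 3 muscle-rich libraries left out together, the fibroblast median was 0.79.

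**Figure D4:**
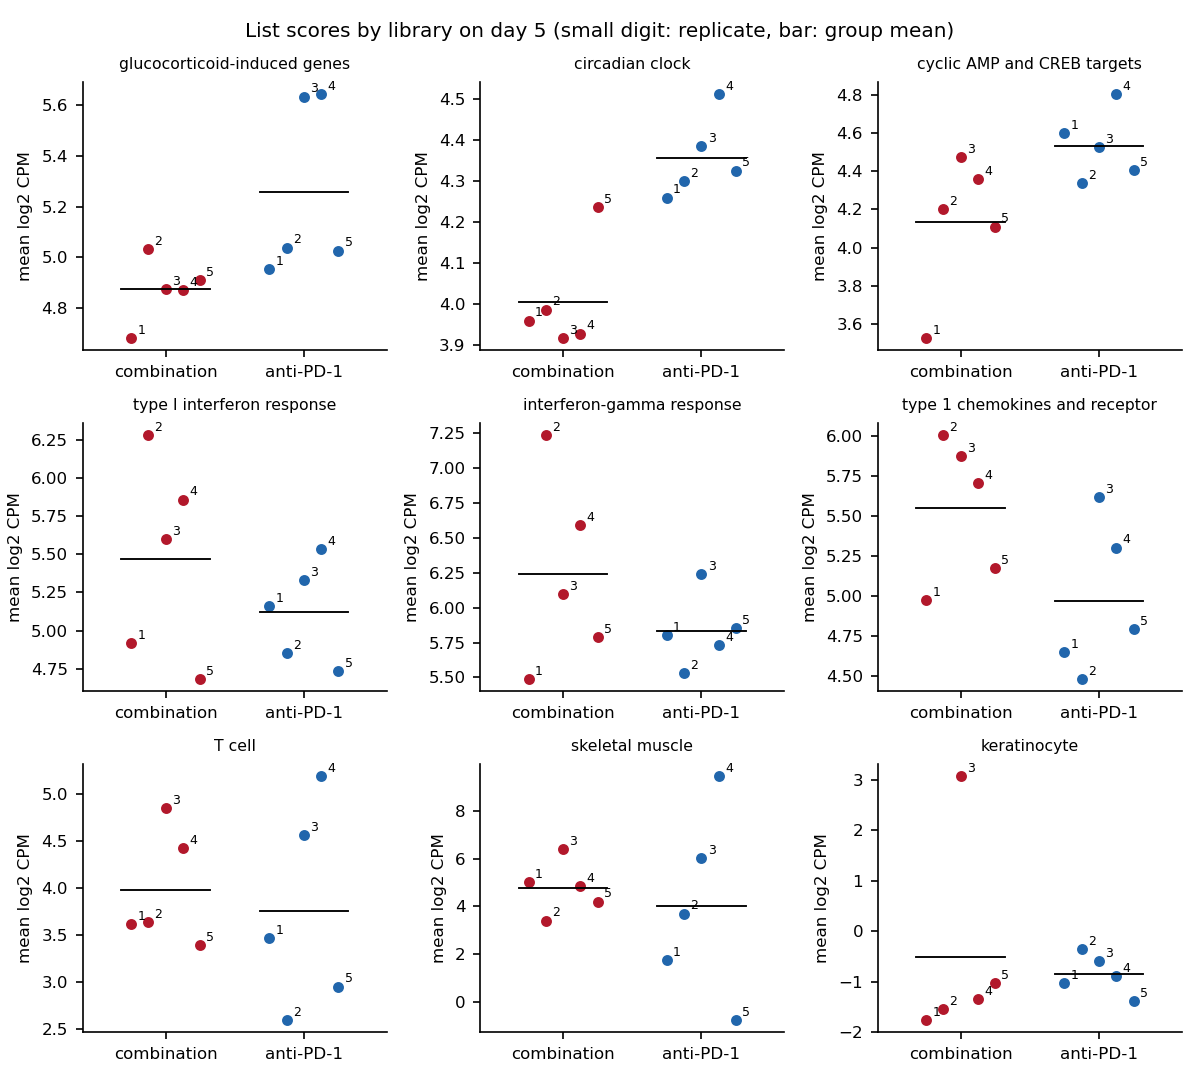
Mean log2 CPM of 9 gene lists in each of the 5 combination and 5 anti-PD-1 libraries of day 5, the small digit giving the replicate and the bar the group mean. The clock scores of the groups do not overlap, the interferon scores are highest in combination replicates 2 and 4, the muscle scores spread most widely among the anti-PD-1 libraries, and the keratinocyte score is highest in combination replicate 3.

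The same comparison on day 2, with 5 combination and 4 anti-PD-1 libraries, called no gene (smallest edgeR adjusted p 0.925; 656 genes, 4.35%, at an unadjusted p under 0.05). Fkbp5 averaged 63.1 ± 11.9 CPM in combination and 50.2 ± 5.11 CPM in anti-PD-1 tumours of day 2 (SD, n = 5 and 4), and its log2 fold change there was 0.33 ± 0.22 (SE). Klf9 and Per1 were likewise above 0 on day 2, at 0.55 ± 0.19 and 0.44 ± 0.23 (SE), opposite in sign to day 5. The median of the glucocorticoid-induced list was -0.46 on day 5 and 0.37 on day 2, that of the clock list -0.26 on day 5 and 0.31 on day 2, and that of the hypoxia list -0.21 on day 5 and 0.60 on day 2. The difference between the days was tested directly, and no gene passed (smallest edgeR adjusted p 0.217; 975 genes, 6.47%, at an unadjusted p under 0.05). The smallest adjusted p belonged to Klf9, whose day 5 change was lower than its day 2 change by -1.33 ± 0.27, and to Fkbp5, at -1.44 ± 0.30 (SE). DESeq2, run as an alternative, called 3 genes for this difference, Fkbp5, Klf9 and Per1, with adjusted p of 0.0177, 0.0165 and 0.0334. Limma-voom with quality weights called 10, Klf9 and Per1 among them.

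EPAT without the antibody gave a further yardstick. EPAT over vehicle tumours on day 5 called no gene (smallest edgeR adjusted p 0.118; 256 genes, 1.70%, at an unadjusted p under 0.05). Fkbp5 averaged 41.6 ± 10.6 CPM in EPAT and 57.0 ± 12.9 CPM in vehicle tumours (SD, n = 5 each), a log2 fold change of -0.46 ± 0.20, with the same sign as in the combination. Trabd2b and Btbd2 were also below 0 there, at -0.38 ± 0.19 and -0.26 ± 0.20, and Klf9 was at -0.05 ± 0.18 (SE). Per1 went the other way, with 40.5 ± 10.7 CPM in EPAT and 29.7 ± 12.5 CPM in vehicle tumours (SD, n = 5 each) and a log2 fold change of 0.44 ± 0.22. The effect of EPAT with the antibody minus its effect without it passed the test for no gene (smallest edgeR adjusted p 0.478; 467 genes, 3.10%, at an unadjusted p under 0.05; DESeq2 also 0). Per1 had that smallest adjusted p, with a difference of -1.49 ± 0.31 on the log2 scale (SE). It passed, at an edgeR adjusted p of 0.00740, only when vehicle replicate 5 was left out, whose 50.8 CPM was the highest of its group. With any other library left out no gene passed. The smallest edgeR adjusted p was then 0.244 without anti-PD-1 replicate 2, but 0.999 without vehicle replicate 2 or EPAT replicate 3. EPAT replicate 1, whose title carries the day 2 number, had the highest Fkbp5 and Per1 of its group, 55.5 and 57.1 CPM. Medians of the type I and interferon-gamma lists for EPAT over vehicle were -0.06 and -0.02, and that of the glucocorticoid-induced list -0.13.

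**Figure D5:**
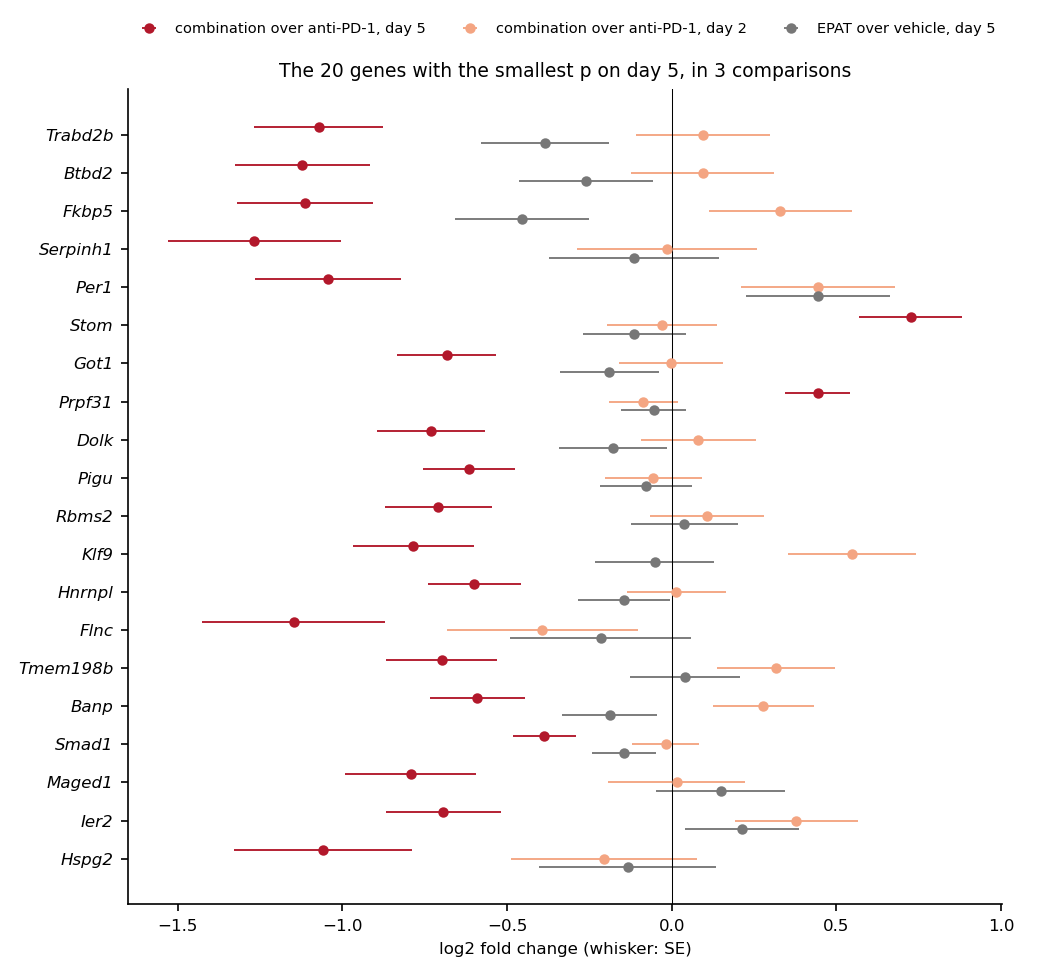
Log2 fold changes with SE of the 20 genes with the smallest p on day 5, for combination over anti-PD-1 on day 5 (red), the same on day 2 (orange) and EPAT over vehicle on day 5 (grey). The red values lie away from 0 because the genes were chosen on them, and the orange values of Fkbp5, Per1 and Klf9 lie on the other side of 0.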

How the data were processed

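RNA from bulk tumours was sequenced as QuantSeq 3′ libraries from 500 ng of total RNA, per the labels' protocols. The authors deposited raw counts per gene for each library and a table of log2 CPM of a filtered set of genes. The submitters' processing notes name bcl2fastq, STAR, featureCounts and limma with builds mm10 and GRCm38, while tool versions and the strand setting were not given in the sources used here. Symbols came from GENCODE M21, which named 37693 of 39179 gene IDs.

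The counts of all 39 libraries were fitted in 1 edgeR model (version 4.0.16, R 4.3.3) with a mean for each of 8 groups of treatment and day, 31 residual degrees of freedom, TMM scaling, filterByExpr with a minimum count of 10 (15070 genes kept), robust quasi-likelihood tests, all 2-sided, and Benjamini-Hochberg adjustment over all genes tested at a threshold of 0.05. Differences between days, and between EPAT with and without the antibody, were contrasts of the same fit. The SE of a fitted log2 fold change was derived from the test, as its absolute size divided by the square root of the F statistic. CPM used the TMM-scaled library size, and log2 CPM had a prior count of 2. List scores average log2 CPM over members. Libraries were called as having lung transcripts at 100 summed counts, since 10, the first choice, split libraries with nearly none.

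Genes were named by rule: those past the threshold, the genes with the smallest p up to 20 in all, up to 4 members of each list by p, and a short fixed set that includes Rdh10, Got1 and Cd274; any other list member named was chosen after its values were seen. The members and the 35 lists were chosen with earlier results of these data known, so a list's direction is a description. Alternatives were DESeq2 1.42.0, limma 3.58.1, other scalings and filters, covariates and each library left out. The code was tested on simulated data. Depth limits mainly the low genes, such as Ptger2 and Ciart.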

Additional observations from a re-analysis of the deposited data

Results flagged for a closer look

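Values were compared within the groups of 5 for a library whose gap to the nearest other exceeded 0.71 of the group's range (Dixon). Of 138 sets of 5 values, 10 had such a library, and chance gives about 1 in 20.

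In combination replicate 1, Fkbp5 was lowest at 15.2 CPM, Prpf31 highest at 53.4 CPM, and the mean log2 CPM of mitochondrially encoded genes lowest at 8.10. In combination replicate 5, Trabd2b was highest at 9.64 CPM and the clock list score highest at 4.24, both toward the anti-PD-1 tumours. Combination replicate 2 had 28.3 CPM of Ifng and combination replicate 3 a keratinocyte score of 3.08, each far above the other 4 of the group. Among anti-PD-1 tumours, replicate 4 stood out for Flnc, at 118 CPM, and Pdcd1, at 42.8 CPM, and replicate 3 for Ifng, at 19.5 CPM.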

How the results depend on the processing

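Across the alternatives, the number of genes past the threshold between combination and anti-PD-1 tumours on day 5 was 3 with edgeR and stayed between 3 and 4 under DESeq2-type size factors, a minimum count of 30, either lung term (the one at 100 counts was chosen after seeing the data), the muscle covariate, and limma-trend on the counts or on the deposited log2 values. It was 18 with DESeq2 (2 higher, 16 lower) and 31 with limma-voom and quality weights (15 higher, 16 lower, Trabd2b and Btbd2 shared with the 3). It was 0 with no filter on low counts (25428 genes tested) and 0 with only the 10 libraries in the fit (13873 genes tested). It was also 0 with the muscle-rich libraries left out together, an alternative chosen after seeing the data. With 1 library left out it ranged from 0 to 6: 6 without anti-PD-1 replicate 2, 5 without combination replicate 4, 1 (Got1) without combination replicate 2, and 0 without combination replicate 1 or 3 or anti-PD-1 replicate 1, 4 or 5. The causes of these changes in number were not tested. For the day difference the count was 0, 3 with DESeq2, 10 with limma-voom, and 0 with any library left out. For EPAT with against without the antibody it was 0, and 0 to 1 with a library left out.

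No paired analysis was possible because replicate numbers here only follow the order of deposit. All 20 genes with the smallest p kept their direction in all 22 alternatives, as their choice by p in the same libraries favours. The split by lung transcripts was not among these alternatives. Within the libraries with lung transcripts Hnrnpl alone of the 20 turned, to 0.04 in mean log2 CPM, against -0.99 within those without. Pigu was at -0.13 and -0.88 and Ier2 at -0.18 and -1.05, while Tmem198b was at -0.67 and -0.66. Medians of the glucocorticoid, clock, cyclic AMP, hypoxia, heat shock, type I interferon, interferon-gamma, type 1 chemokine, NK cell, regulatory T cell, monocyte and MAPK feedback lists kept their sign in every alternative; the median of each other list changed sign in at least 1.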
